A study of Danio rerio with 7 samples.

Results

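Mitochondrial ribosomal protein genes of the zebrafish were examined in RNA from whole adult animals, females set against males. A gene was a member when a non-control probe of the array carried a RefSeq accession of a zebrafish gene whose symbol starts with mrpl or mrps and goes on with a number. Each gene was represented by 1 probe, the one with the highest mean signal of the fish. This gave 61 member genes out of 11484 genes that could be named on the array, 35 of the large subunit (mrpl) and 26 of the small subunit (mrps). Another 14 genes with such symbols in the reference gene table had no probe under their accessions and were not analysed here, among them mrpl1, mrpl10, mrps7 and mrps12.

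The fish were 7 full siblings of a hybrid strain labelled AB x unknown, 4 females (numbered 4, 7, 8 and 9) and 3 males (numbered 5, 8 and 9), with no treatment and no allele named in the labels. RNA came from a homogenate of each whole adult. Each fish was labelled with Cy5 on 1 two-colour Agilent array and set against a Cy3-labelled common reference made from whole adults of the same hybrid strain. The number and sex of the reference animals are not given in the sources used here. Values are log2 ratios of fish over reference, so a value of 0 is the level of the reference, and a difference is the mean of the females minus the mean of the males on that scale. The siblings were collected to relate expression to genotype, and the genotypes were not analysed here.

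Mitochondria keep a ribosome of their own. It translates the few messenger RNAs of mitochondrial DNA, which encode core subunits of the respiratory chain and of ATP synthase, while its proteins are encoded in the nucleus, made in the cytosol and imported. Part of these proteins have counterparts in bacterial ribosomes and the others joined the particle during the evolution of mitochondria. Eggs store large numbers of mitochondria, and muscle and liver are rich in them as well.

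The share of spots well above background in Cy5 lay between 29.8% and 65.3% over the 7 arrays. The library labelled male 5 went against its label: all 15 egg and oocyte marker genes lay nearer to the females than to males 8 and 9 in it, with a median log2 ratio of 0.50. The 4 females had medians between -0.47 and 0.40, and males 8 and 9 had medians of -4.15 and -4.19. Male 5 lay nearer to the females in 84.6% of all tested probes too, and in all 9 testis, 9 muscle and 5 liver markers. Its log2 ratios correlated at 0.78 and 0.85 with females 4 and 8, scanned in its session. The values were 0.44 and 0.47 with females 7 and 9, and 0.38 and 0.30 with males 8 and 9. From the 5th to the 95th percentile its ratios spanned -0.81 to 0.86, those of males 8 and 9 -1.95 to 2.62 and -1.51 to 2.78. The part of session and span in this nearness was not tested. The main results are therefore given over the 7 fish and again without that library, which leaves males 8 and 9. The headers place females 7 and 9 and male 9 in 1 scan session, male 8 in another, and females 4 and 8 and male 5 in the third. They give females 4 and 7, female 8 and male 9, and female 9 and male 5 the same slide and array position, and whether arrays were used again is not given. Whole-animal RNA cannot tell apart fewer cells of a type and less RNA per cell.

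Of the 61 members, 53 had a Cy5 signal well above background on all 7 arrays. The 58 members that reached this on at least 3 arrays were tested, and mrpl13, mrps2 and mrps11, which reached it in females 7 and 9 but in no other fish, were not. Before any normalisation, the median Cy5 signal of the tested members over local background was 5.67, 31.8, 5.51 and 17.0 in females 4, 7, 8 and 9, and 5.46 in male 5. Males 8 and 9 had the lowest values, 2.58 and 2.63. All tested probes of the array followed that order only in part. In the dim arrays of females 4 and 8 and male 5 their medians were 1.53, 1.49 and 1.40. Each of males 8 and 9 had 1.71, above these. In females 7 and 9 the medians were 5.25 and 3.62, above males 8 and 9 as for the members. The reference channel of the members stood at 18.8 times background on the array of male 8 and between 32.5 and 49.9 times on the others.

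After normalisation, the members had a median log2 ratio of -0.10, -0.13, -0.18 and -0.17 in females 4, 7, 8 and 9. The library labelled male 5 stood at -0.01, among or above the females. Males 8 and 9 stood at -0.87 and -0.64, below the other 5 fish. Over all tested probes the median of every fish lay between 0.01 and 0.08.

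**Figure D1:**
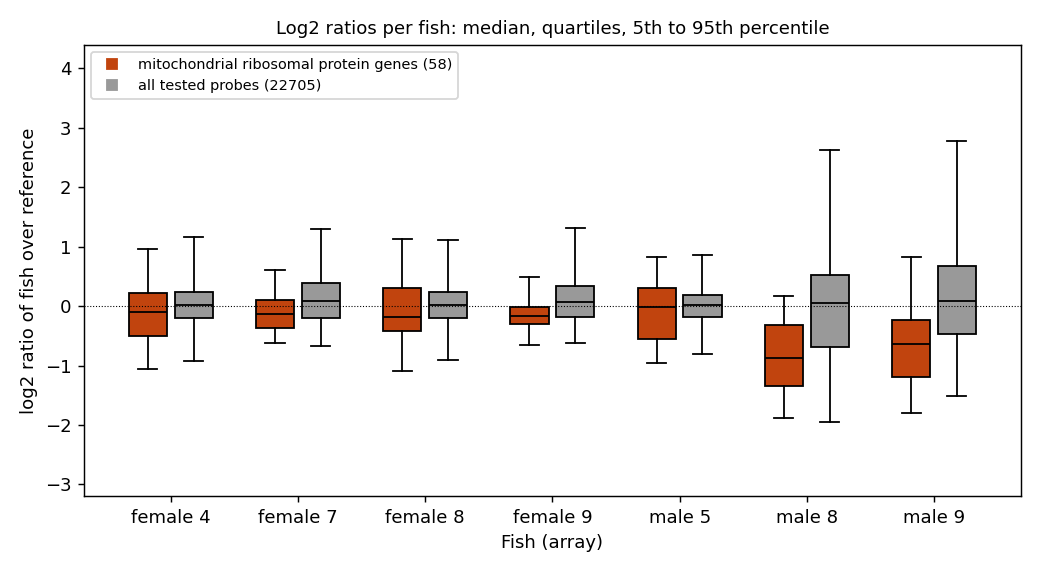
Log2 ratio of fish over reference (vertical axis) in each of the 7 fish, for the 58 tested members and for all 22705 tested probes. Boxes span the quartiles, the line in a box is the median and whiskers reach the 5th and 95th percentiles. The members' medians lie between -0.18 and -0.01 in the females and the library labelled male 5, and at -0.87 and -0.64 in males 8 and 9.

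Over all 7 fish, no member passed the threshold between 4 females and 3 males (limma with Benjamini-Hochberg adjustment over 22705 probes, smallest adjusted p of a member 0.539). No probe of the array passed either (0 of 22705, 0%). At an unadjusted p under 0.05, 9 of 58 members (15.5%) were higher in females, where 5.14% of all tested probes were, and 1 member, mrpl23, was lower (6.72% of probes in either direction). The female mean was above the male mean in 49 of 58 members, compared with 47.4% of all tested probes. The median difference of the members was 0.36, and that of all tested probes was -0.02. The medians of the individual fish had a pooled SD within a sex of 0.28, so the shift of the members was close to the spread between fish. All 4 females lay above all 3 males in 4 members (6.90%), mrpl24, mrpl30, mrpl37 and mrpl40, against 1.92% of all tested probes. Tested named genes lay nearer to the members than all probes did. Of these 8845 genes, 702 were higher in females at an unadjusted limma p under 0.05. In 54.7% the female mean was above the male mean, the median difference was 0.05, and in 207 all females lay above all males.

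Without the library labelled male 5, 20 of 58 members (34.5%) passed the threshold, all of them higher in the 4 females than in males 8 and 9. Among all tested probes, 25.4% passed in either direction, 13.2% higher in females and 12.1% higher in males. Named genes form a closer background, and of their 8845 tested genes 30.9% passed, 19.2% higher in females. The share of members that passed in either direction was thus near the background. That all of them were higher in females was not tested against the background. Of the 53 members above background on all arrays, 20 (37.7%) passed, beside 39.5% of the 5292 named genes above background on all arrays, of which 26.1% were higher in females. The difference was above 0 in 48 of 58 members, in 45.9% of all tested probes and in 53.6% of named genes. The median difference of the members was 0.60, 1.52-fold, beside -0.05 for all tested probes, and the pooled SD of the fish medians within a sex was 0.09. Male 5 was left out because of its expression in these same data. That SD, with 2 males left, and the adjusted p values take no account of this choice. Both males lay below all 4 females in 34 members (58.6%), a pattern seen in 23.6% of all tested probes and 30.9% of named genes. These 34 and the 48 above include mrps9, which was well above background in no male. Among the 53 members above background on all arrays the counts were 33 and 45. Their median difference was 0.64, beside 0.17 for all probes above background on all arrays. Both males lay above all females in 4 members, mrpl4, mrpl23, mrpl35 and mrpl43, against 25.2% of all tested probes.

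The 20 members that passed differed by 1.56-fold to 3.25-fold, with a median of 1.16 on the log2 scale and standard errors of 0.14 to 0.42. Of these, 15 differed by at least 2-fold. Among all tested probes 2034 of 22705 passed at 2-fold or more higher in females, and among named genes 1209 of 8845. All 20 had a Cy5 signal well above background on every array. The background correction adds a constant to both channels, so the fold changes of dim probes are understated. For the fits with a fish left out, the share of all tested probes that passed in every fit is not given here. With each of the 6 fish left out in turn, 10 of the 20 passed in every fit, where the fits without male 8 or male 9 leave 1 male that is assumed to vary like the females: mrpl17, mrpl22, mrpl30, mrpl32, mrpl36, mrpl44, mrps6, mrps17, mrps23 and mrps30. The number of members that passed ranged from 12 without male 8 (15.1% of all tested probes), 11 of them among the 20 and the other mrpl51, higher in the male, to 19 without female 8 (21.2%), 18 of them among the 20, and the median difference ranged from 0.48 without male 8 to 0.77 without male 9.

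**Figure D2:**
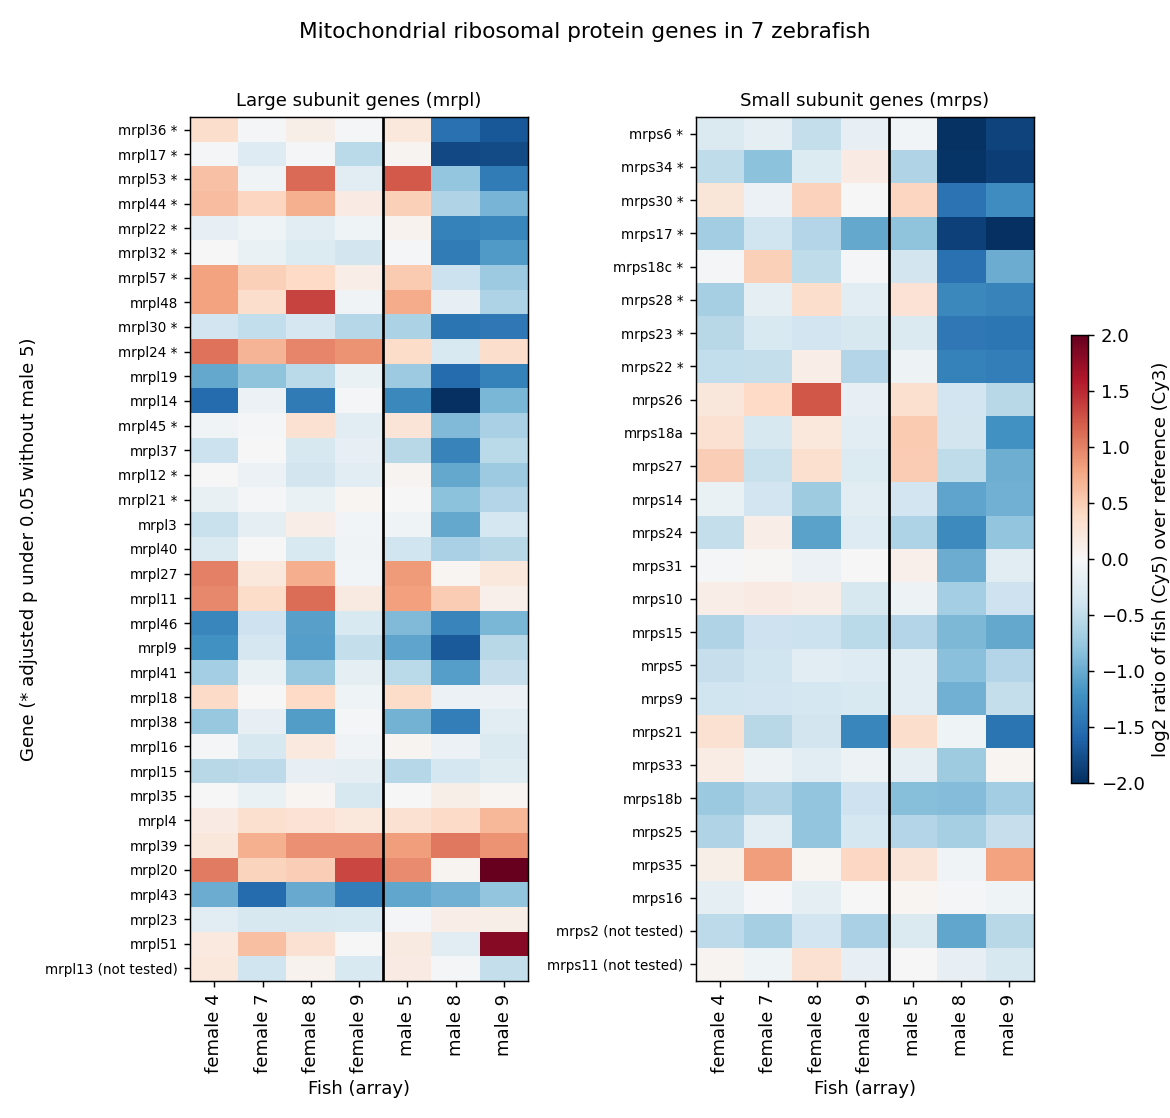
Log2 ratio of fish over reference (colour, clipped at 2 in either direction) of all 61 members in the 7 fish, large subunit genes on the left and small subunit genes on the right, ordered by the difference between females and males 8 and 9. A star marks the 20 members with an adjusted p under 0.05 in that comparison. The columns of males 8 and 9 are the bluest for the starred genes, and the column of male 5 resembles those of the females.

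Among 34 tested large subunit genes, 12 passed (35.3%, beside 30.9% of named genes, 19.2% higher in females) and the median difference was 0.49. The largest difference was that of mrpl36, whose product belongs to a family shared with bacterial large subunits. For mrpl36 the log2 ratio was 0.35, -0.03, 0.12 and -0.03 in females 4, 7, 8 and 9, 0.21 in male 5, and -1.49 and -1.70 in males 8 and 9. Both low values belonged to males 8 and 9, and the difference without male 5 was 1.70 ± 0.18 (SE, 4 females and 2 males), or 3.25-fold, with a limma adjusted p of 0.00227. Over the 7 fish mrpl36 was 2.14-fold higher in females (limma adjusted p = 0.539). The values of further members are given in the same order of females. For mrpl17, another gene with a bacterial counterpart, they were -0.03, -0.25, -0.04 and -0.54 in the females, 0.05 in male 5, and -1.80 and -1.79 in males 8 and 9. Male 5 was the highest of the 7 fish for mrpl17 and the other males were the lowest, with a difference of 1.58 ± 0.19 (limma adjusted p = 0.0032), and 0.96 over the 7 fish.

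The product of mrpl44 has a fold related to ribonuclease III and has no counterpart in the bacterial ribosome, and human variants in MRPL44 cause a heart muscle disease. For mrpl44 the log2 ratio was 0.62, 0.43, 0.71 and 0.17 in the females, 0.47 in male 5, and -0.61 and -0.92 in males 8 and 9. It was above the reference in the 5 former fish and below it in the latter pair, and the difference was 1.25 ± 0.21 (limma adjusted p = 0.008), and 0.84 over the 7 fish. The protein encoded by mrpl53 is likewise specific to mitochondria. For mrpl53 the log2 ratio was 0.58, -0.06, 1.14 and -0.21 in the females, 1.23 in male 5, and -0.77 and -1.41 in males 8 and 9. The females of mrpl53 were spread widely, and its difference of 1.45 ± 0.42 passed at an adjusted p of 0.0469 but missed the threshold in 5 of the 6 fits that left out a fish, all except that without female 9. Over the 7 fish the difference of mrpl53 was 0.68.

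The uL22-type protein encoded by mrpl22 lines the exit tunnel of the large subunit. For mrpl22 the log2 ratio was -0.16, -0.09, -0.23 and -0.08 in the females, 0.07 in male 5, and -1.35 and -1.30 in males 8 and 9. The females agreed within an SD of 0.07, and the difference was 1.18 ± 0.14 (limma adjusted p = 0.0029), and 0.72 over the 7 fish. The gene mrpl30, also with a bacterial counterpart, was among the brightest members. For mrpl30 the log2 ratio was -0.39, -0.49, -0.34 and -0.57 in the females, -0.64 in male 5, and -1.46 and -1.43 in males 8 and 9. Male 5 was below all females but far nearer to them than to the other males. The difference of mrpl30 was 1.00 ± 0.14 without male 5 (limma adjusted p = 0.00533) and 0.73 with it (unadjusted p = 0.0159, limma adjusted p = 0.539).

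The mrpl12 protein forms the flexible stalk of the large subunit, which meets the translation factors. For mrpl12 the log2 ratio was -0.01, -0.12, -0.37 and -0.22 in the females, 0.06 in male 5, and -1.02 and -0.73 in males 8 and 9. The groups without male 5 did not overlap, and the difference was 0.69 ± 0.17 (limma adjusted p = 0.0309), which missed the threshold in 4 of the 6 fits that left out a fish (without females 4, 7 or 9 or male 8). It was 0.38 over the 7 fish. The mrpl45 protein, which in mammals anchors the particle to the inner membrane, differed by 0.76 ± 0.19 (limma adjusted p = 0.0312), and by 0.42 over the 7 fish. Its call was lost without female 4, female 7, male 8 or male 9. The other large subunit members that passed were mrpl21, mrpl24, mrpl32 and mrpl57. The calls of mrpl21 and mrpl24 were each lost in 4 of the 6 fits that left out a fish, male 8 among them, and that of mrpl57 without male 9. Of these, mrpl24 was the member whose females and 3 males were farthest apart in relation to their spread, with a difference of 0.77 over the 7 fish (unadjusted p = 0.00952, limma adjusted p = 0.539). For mrpl24 the log2 ratio was 1.08, 0.67, 0.97 and 0.90 in the females, 0.37 in male 5, and -0.31 and 0.36 in males 8 and 9.

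Among 24 tested small subunit genes, 8 passed (33.3%, beside 30.9% of named genes, 19.2% higher in females) and the median difference was 0.63. The largest difference was that of mrps6, which has a bacterial counterpart. For mrps6 the log2 ratio was -0.29, -0.20, -0.47 and -0.16 in the females, -0.06 in male 5, and -1.97 and -1.86 in males 8 and 9. The groups lay far apart once male 5 was left out, by 1.63 ± 0.16 or 3.10-fold (limma adjusted p = 0.00196), and by 1.01 over the 7 fish. The small subunit protein of mrps34 is specific to mitochondria. For mrps34 the log2 ratio was -0.50, -0.82, -0.27 and 0.16 in the females, -0.60 in male 5, and -1.97 and -1.88 in males 8 and 9. The difference was 1.56 ± 0.28 (limma adjusted p = 0.00979), and it was 1.12 over the 7 fish, the largest of all members there (unadjusted p = 0.0242, limma adjusted p = 0.539). Without male 8 the call of mrps34 was lost.

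The gene mrps30 carries a small subunit name, but in mammalian structures its product sits in the large subunit. For mrps30 the log2 ratio was 0.24, -0.11, 0.47 and -0.01 in the females, 0.43 in male 5, and -1.47 and -1.25 in males 8 and 9. It was close to the reference in 5 fish and far below it in males 8 and 9, with a difference of 1.51 ± 0.21 (limma adjusted p = 0.00456), and 0.91 over the 7 fish. The protein of mrps17 is of bacterial descent. For mrps17 the log2 ratio was -0.69, -0.39, -0.59 and -1.03 in the females, -0.81 in male 5, and -1.86 and -2.01 in males 8 and 9. All 7 fish were below the reference for mrps17, males 8 and 9 the most, and the difference was 1.26 ± 0.21 (limma adjusted p = 0.00784), and 0.89 over the 7 fish.

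The mitochondrion-specific gene mrps23 was the member of the small subunit that passed with the smallest standard error. For mrps23 the log2 ratio was -0.56, -0.31, -0.38 and -0.32 in the females, -0.29 in male 5, and -1.42 and -1.45 in males 8 and 9. Its difference was 1.04 ± 0.15 (limma adjusted p = 0.00493), and 0.66 over the 7 fish. The other small subunit members that passed were mrps18c, mrps22 and mrps28, with differences of 1.21, 1.01 and 1.13. In humans, variants in MRPS22 and MRPS28 cause mitochondrial disease. The call of mrps22 was lost without male 8 or male 9, and those of mrps18c and mrps28 were each lost in 4 of the 6 fits that left out a fish. The gene mrps9 was well above background in females 7, 8 and 9 and in no male, so no fold is given for it (limma adjusted p = 0.182 without male 5 and 0.674 over the 7 fish). Its values are kept in the counts and medians of the tested members.

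**Figure D3:**
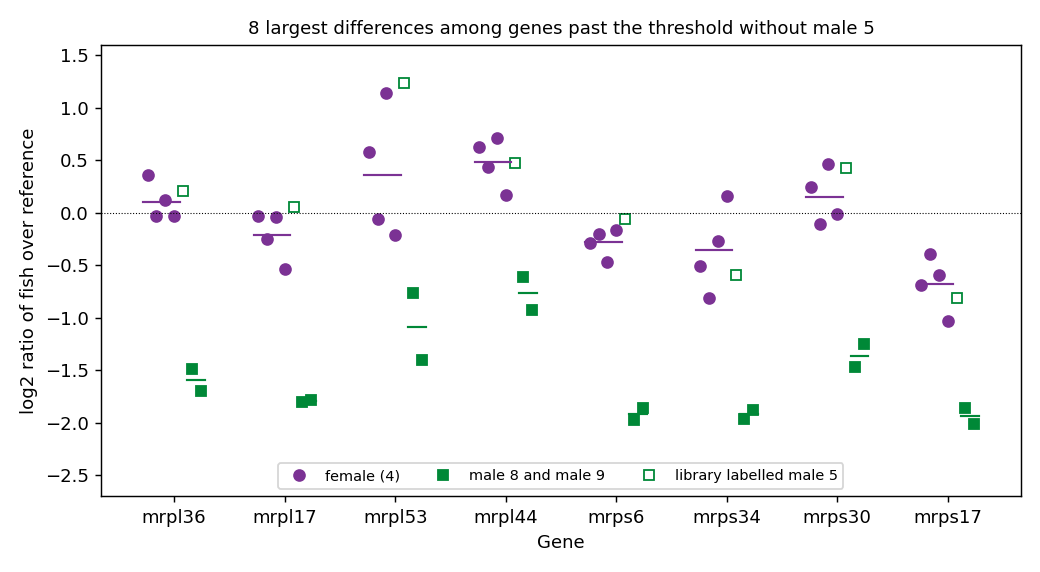
Log2 ratio of fish over reference (vertical axis) for the 8 members with the largest differences among those with an adjusted p under 0.05 without male 5. Filled circles are the 4 females, filled squares males 8 and 9, the open square is the library labelled male 5, and short lines are means of the filled points. For mrpl36 the squares lie at -1.49 and -1.70 and the circles between -0.03 and 0.35.

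There were 10 members that did not have a higher female mean without male 5, and none of them passed. The most negative difference was that of mrpl51, specific to mitochondria. For mrpl51 the log2 ratio was 0.20, 0.60, 0.30 and 0.01 in the females, 0.18 in male 5, and -0.23 and 1.83 in males 8 and 9. The males lay on either side of the females, with a difference of -0.52 ± 0.53 (limma adjusted p = 0.514) that was 0.51 without male 9 and -1.55 without male 8, where it passed. The males also differed from each other for mrpl20, a bacterial-type protein that binds ribosomal RNA early in assembly in bacteria and the brightest member, saturated in Cy5 on 2 arrays, those of females 7 and 9. For mrpl20 the log2 ratio was 1.04, 0.45, 0.49 and 1.34 in the females, 0.95 in male 5, and 0.06 and 2.21 in males 8 and 9. The values of females 7 and 9 are too low by an unknown amount, because their Cy5 signal was saturated, and no order of the fish is read from them. As computed with these values kept, the difference was -0.31 ± 0.59 (limma adjusted p = 0.737), 0.77 without male 9 and -1.38 without male 8.

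The gene mrpl23, whose product lies at the mouth of the exit tunnel, was the member with the smallest spread within a sex (SD 0.07) and was lower in females. For mrpl23 the log2 ratio was -0.21, -0.32, -0.33 and -0.31 in the females, -0.02 in male 5, and 0.14 and 0.12 in males 8 and 9. All 4 females were below all 3 males, a pattern seen in 1.78% of all tested probes, and the difference was -0.37 (unadjusted p = 0.0231, limma adjusted p = 0.539). Without male 5 it was -0.42 ± 0.13 (limma adjusted p = 0.0639). With centring on the median in place of the loess curve it turned to 0.49 over the 7 fish and 0.66 without male 5. For mrpl43, well above background on 5 arrays, the log2 ratio was -0.99, -1.53, -1.01 and -1.38 in the females, -1.03 in male 5, and -0.95 and -0.79 in males 8 and 9. The females were lower than males 8 and 9 by a margin that did not pass, with a difference of -0.36 ± 0.21 (limma adjusted p = 0.263) that turned to 0.33 with median centring. The members mrps16 and mrps18b, both counted here with a bacterial counterpart, differed by -0.04 ± 0.14 and 0.15 ± 0.17 (limma adjusted p = 0.851 and 0.565). The SD within a sex was 0.09 for mrps16, which was well above background on 3 arrays.

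The library labelled male 5 was within the range of the females in 38 of 58 members (65.5%), a share close to the 67.1% of all tested probes, and above or below all females in 14 and 6. In all 20 members that passed without it, male 5 lay above both other males. The 20 were chosen on a difference between the females and those males. In 19 of them male 5 lay nearer to the females than to males 8 and 9. It did so in 47 of 58 members (81.0%) and in 84.6% of all tested probes. The scan sessions split the fish in the same way in part. Within the session of females 7 and 9 and male 9, male 9 lay below both females in 46 of 58 members, as it did in 39.4% of all tested probes, and the median difference was 0.53. There 19 members passed, 18 of them higher in females, with 29.4% of all tested probes passing and 12.7% higher in females. In this session and in that of male 5 the male arm is 1 fish, which the fit assumes to vary like the pair of females, so these calls carry no spread between males. The member that passed in the other direction was mrpl51. Within the session of females 4 and 8 and male 5 the median difference was -0.08, 25 of 58 members were positive and none passed (limma; 1 at an unadjusted p under 0.05, and 0% of all tested probes passing). The session of male 8 holds no female and gives no value. With slide and array position as a block, which leaves female 8 and male 9 as the 1 pair of females and males at a shared position, the median difference without male 5 was 0.49 and no member passed (limma; 21 at an unadjusted p under 0.05, and 0% of all tested probes passing). With scan session as a block 13 members passed, 12 higher in females, where 20.2% of all tested probes passed. Without male 5, the fit with session as a block set male 9 against females 7 and 9 only. Male 8 had no female in its session, and females 4 and 8 had no male in theirs. Its median difference was again 0.53, so it is no separate check of the session of male 9. Its calls carry no spread between males either. Over the 7 fish, session as a block also set male 5 against females 4 and 8. The median difference was then 0.24 and no member passed (limma; 3 at an unadjusted p under 0.05, and 0% of all tested probes passing). Normalisation mattered as well. Centring each array on its median in place of the loess curve left 3 members past the threshold (3.11% of all tested probes). All 58 differences were then above 0, but the median of all tested probes also rose, from -0.05 to 0.24. Of the 706 probes that passed, 676 were higher in females. The share of all tested probes above 0 under that setting is not given here. A normexp offset of 0 left 10 members (28.3% of all tested probes). With fish of the same number as a block 12 members passed (18% of all tested probes). That block sets only females 8 and 9 against males 8 and 9. Over the 7 fish with array weights 12 passed (13.8%), at a median difference of 0.51, beside 0.36 without weights and 0.60 without male 5. The weights are estimated from the same values and are lower for arrays far from the mean of their sex. The weight of male 5 is not given here.

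Spread between siblings of 1 sex was described with no test, as the SD of the log2 ratio. Pooled over both sexes, the SD within a sex had a median of 0.41 over the members and 0.35 over all tested probes. Among the 4 females alone it was 0.25 and 0.23, and without male 5 the pooled value of the members was 0.25. The members with the largest pooled spread were mrpl53 (SD 0.99), mrps21 (0.79) and mrpl14 (0.76). That SD counts male 5 as a male. Among the females alone it was 0.62 for mrpl53, 0.66 for mrps21 and 0.81 for mrpl14. For mrpl14, a bacterial-type gene at the interface of the subunits, the log2 ratio was -1.54, -0.12, -1.41 and -0.04 in the females, -1.29 in male 5, and -2.25 and -0.91 in males 8 and 9. The females of mrpl14 thus formed pairs by scan session, females 4 and 8 low and females 7 and 9 near the reference, and its difference without male 5 was 0.80 ± 0.59 (limma adjusted p = 0.363), 0.13 without male 8 and 1.47 without male 9. For mrps21 the log2 ratio was 0.31, -0.56, -0.37 and -1.30 in the females, 0.36 in male 5, and -0.09 and -1.45 in males 8 and 9. Female 9 and male 9, of 1 session, were the lowest fish for mrps21, and the difference was 0.29 ± 0.52 (limma adjusted p = 0.718), -0.39 without male 9. The part of the scan session in these spreads was not tested.

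A second reading came from other probes of the same genes. There were 12 members with 13 further tested probes, of which 10 had the same sign as the probe used without male 5 and 8 the same call. The median absolute gap between the probes of a gene was 0.47 and the largest was 1.17. Both probes of mrpl53 passed, at 1.45 ± 0.42 and 1.40 ± 0.16 (limma adjusted p = 0.0469 and 0.00269), the latter the more precise. For mrpl12 the 3 probes gave 0.69, 0.51 and 1.17, and the middle one missed the threshold (limma adjusted p = 0.092). The probe used for mrps34 gave 1.56 and its other probe 0.54 ± 0.26 (limma adjusted p = 0.175), with -0.90 and -0.74 in males 8 and 9 where the probe used had -1.97 and -1.88. The probes of mrps23 gave 1.04 and 0.56 ± 0.18, the latter at a limma adjusted p of 0.0643. For mrpl48 and mrps18b the probe used did not pass (1.01 ± 0.40, limma adjusted p = 0.111, and 0.15) while the other one did, at 0.96 ± 0.27 and 0.72 ± 0.15 (limma adjusted p = 0.043 and 0.0153). Over the 7 fish no probe of a member passed, and the pairs gave 0.68 and 0.80 for mrpl53, 1.12 and 0.39 for mrps34, 0.66 and 0.27 for mrps23, 0.63 and 0.67 for mrpl48, and 0.17 and 0.48 for mrps18b. Where probes of 1 gene disagree, the size of its difference is uncertain.

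**Figure D4:**
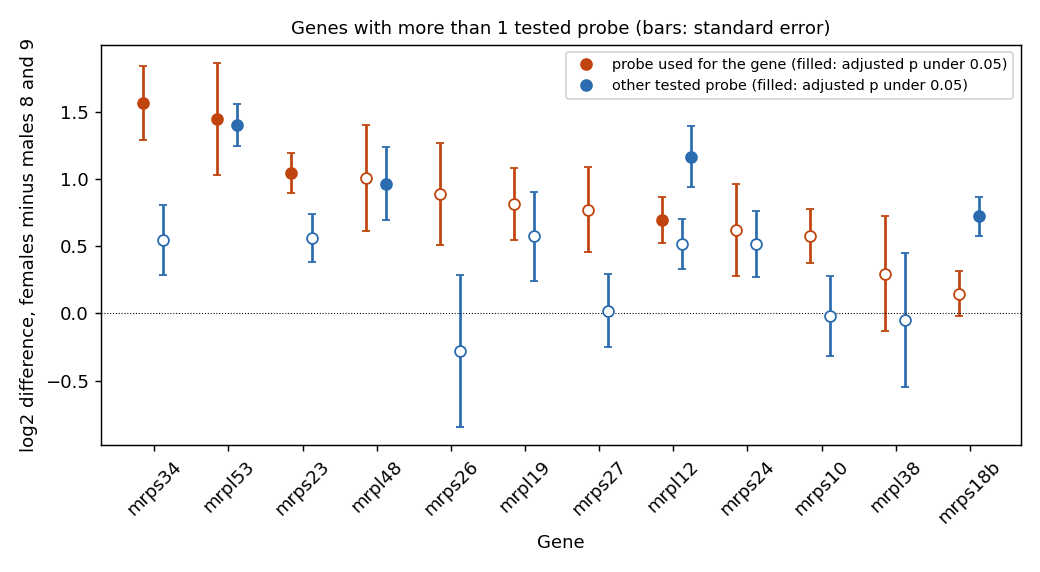
Difference between females and males 8 and 9 (log2, vertical axis) for the 12 members with more than 1 tested probe. Orange points are the probe used for the gene, blue points its other tested probes, bars are standard errors and filled points have an adjusted p under 0.05. The probes of mrpl53 lie at 1.45 and 1.40, those of mrps34 at 1.56 and 0.54.

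Subunit and descent, which did not enter the choice of members, were set beside the differences without male 5. Of 35 members with a counterpart in the bacterial ribosome, 12 passed, with a median difference of 0.58, and of 23 members without one, 8 passed, with a median of 0.71. The shares of large and small subunit genes were alike in the same way (12 of 34 and 8 of 24). Subunits follow the gene names here, so mrps30 and mrps18a count as small. The genes mrps18a, mrps18b and mrps18c were all counted as having a bacterial counterpart. Beside these counts, 30.9% of named genes passed, 19.2% higher in females. Over the 7 fish the medians were 0.36 for large and 0.39 for small subunit genes, and 0.35 and 0.36 with and without a bacterial counterpart. Signal did enter the choice, since the brightest probe of a gene was taken. Of the 29 brighter members 15 passed (median 0.88), and of the 29 dimmer ones 5 passed (median 0.43), all higher in females. Among named genes at or above the median signal of the members 41.9% passed higher in females, and among those below it 11.8%. Among the 4 brightest members, mrps30 and mrpl30 passed and mrpl20 and mrps18a did not. For mrps18a, whose product sits in the large subunit in mammalian structures, the log2 ratio was 0.30, -0.32, 0.20 and -0.22 in the females, 0.52 in male 5, and -0.37 and -1.21 in males 8 and 9. The value of male 8 was close to the lowest female, and the difference of 0.78 ± 0.30 did not pass (limma adjusted p = 0.107). No test was made between these subgroups.

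Genes that work beside the mitochondrial ribosome were described in the same comparison without male 5. Of all tested named genes 30.9% passed there, 19.2% higher in females. Of 4 tested mitoribosomal proteins with other names, 2 passed, higher in females: aurkaip1 (1.17 ± 0.14, limma adjusted p = 0.0034) and dap3, a GTP-binding small subunit protein (1.09 ± 0.23, limma adjusted p = 0.0179). The median of the 4 was 0.93. Mitochondrial aminoacyl-tRNA synthetases, which charge the transfer RNAs of the organelle, passed in 6 of 9 genes, all higher in females, with a median of 0.89. Their largest differences were those of pars2, the prolyl enzyme (1.68 ± 0.15, limma adjusted p = 0.00166), and rars2, the arginyl enzyme (1.31 ± 0.33, limma adjusted p = 0.0324). Of 15 genes of ribosome assembly and ribosomal RNA processing, 3 passed, all higher in females, with a median over the 15 of 0.56. They were rbfa, a small subunit maturation factor (1.84 ± 0.44, limma adjusted p = 0.0269), rpusd4, a pseudouridine synthase (1.79 ± 0.23, limma adjusted p = 0.00372), and mtg1, a GTPase of large subunit assembly.

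Mitochondrial translation factors passed in 1 of 8 genes, mtif2, the initiation factor (0.86 ± 0.20, limma adjusted p = 0.0232), and their median was 0.50. Genes of mitochondrial DNA upkeep and transcription passed in 1 of 6, mgme1, a mitochondrial DNA exonuclease (1.05 ± 0.16, limma adjusted p = 0.00628), with a median of 0.66. No gene of these 5 lists passed in the other direction. The shares that passed among assembly genes (20%), translation factors (12.5%) and DNA upkeep genes (16.7%) were near or below the 19.2% of named genes. The lists were not tested against that background. Nuclear genes of oxidative phosphorylation had the opposite sign: 28 of 69 passed higher in males and 3 higher in females, with a median of -0.62. Among all tested probes 12.1% passed higher in males. The largest were cox7a1 (-2.53 ± 0.54, limma adjusted p = 0.0181) and cox6a2 (-2.34 ± 0.52, limma adjusted p = 0.0211), subunits of cytochrome c oxidase found in striated muscle of mammals. The 3 that were higher in females were cox5ba, cox7a2a and cox6a1, the last the counterpart of cox6a2 outside muscle in mammals. Cytosolic ribosomal protein genes had a median of -0.11, and 1 of 71 passed, rps8b, higher in males (-2.15 ± 0.37, limma adjusted p = 0.00878). Over all 7 fish no gene of any of these lists passed (limma), as for all tested probes. The medians there were 0.59 for the other mitoribosomal proteins, 0.54 for the synthetases, 0.35 for assembly and RNA processing, 0.22 for translation factors, 0.49 for DNA upkeep and transcription, -0.34 for oxidative phosphorylation and 0.02 for the cytosolic ribosome.

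**Figure D5:**
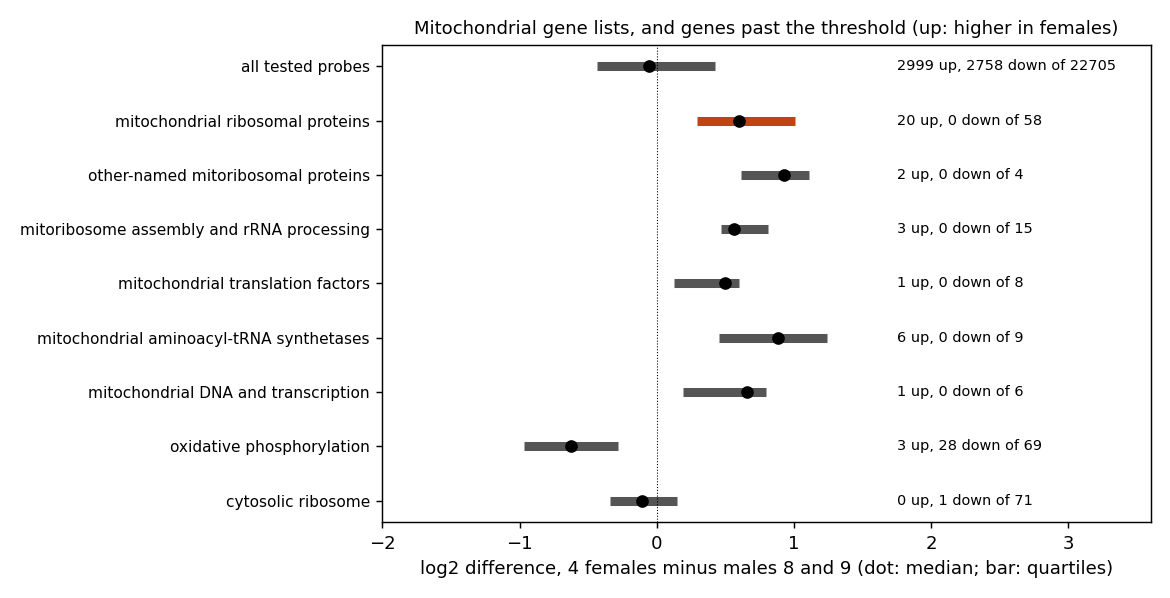
Difference between females and males 8 and 9 (log2, horizontal axis) for all tested probes, the members (orange) and 7 lists of related genes. Dots are medians over the genes of a list, bars span the quartiles, and the text gives how many genes had an adjusted p under 0.05 in each direction. The members lie at 0.60, oxidative phosphorylation at -0.62 and the cytosolic ribosome at -0.11.

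Markers of organs also differed between the same fish. Egg, oocyte and yolk markers went in the direction of the members, and testis, muscle and liver markers in the other. All 15 egg and oocyte markers were higher in females than in males 8 and 9 (median 4.65), and so were all 3 yolk protein genes (median 4.26). The summed raw Cy5 signal of the egg and oocyte markers lay between 65091 and 621492 in the females and at 63159 in male 5. Males 8 and 9 had sums of 3789 and 6774, with 12 and 14 of the 15 genes still well above background. All 9 testis markers, all 9 muscle markers and all 5 liver markers had a higher mean in males 8 and 9 (medians -1.98, -1.66 and -2.10). Of these, 8, 3 and 3 passed the threshold, where 12.1% of all tested probes passed higher in males. Over the 7 fish the medians were 2.66 for the egg and oocyte markers, 3.19 for yolk, -1.38 for testis, -0.31 for muscle and -1.13 for liver, and no marker passed (limma). The median log2 ratio of the muscle markers was 0.82, 1.49, 0.25 and 2.22 in the females, -0.17 in male 5, and 3.13 and 3.41 in males 8 and 9. The part of these organs in the values of the mitochondrial ribosomal protein genes was not tested.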

How the data were processed

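Whole-animal RNA of 7 fish was measured on 1 two-colour array each. Spots had been quantified by the authors in Agilent's Feature Extraction software, version 10.5.1.1, per the file headers (array design 019161, designed on zv8). The deposited scanner files hold each spot's intensity and local background in both channels. The log10 ratios of the deposited value table were identical to those of the scanner files at all 45220 spots of each array, and each column had a median of 0. Further centring or scaling is unknown. Per the labels, Cy5 is the fish and Cy3 the reference on every array, with no dye swap, so any dye bias stays in the ratios. Only a bias that is equal on all arrays drops out of differences between fish. The log2 ratios of any 2 arrays correlated at 0.30 to 0.87 over the tested probes. The labels give total RNA while their labelling protocol describes DNA, so how RNA was labelled is not given.

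From the deposited median intensities, log2 ratios were computed with limma 3.58.1 in R 4.3.3: normexp background correction with an offset of 50, then loess within each array. The 1417 control spots and outlier spots were left out, saturated spots were kept and repeat spots averaged. Probes with Cy5 well above background on 3 or more arrays were tested (22705 of 43603 probes). Probes were named through RefSeq accessions in a gene table of a later assembly than the array's, so no coordinates are given (16568 probes named). The number of arrays limits the precision. Each fish is a separate animal on 1 array.

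Females were compared with males by lmFit and eBayes (two-sided, Benjamini-Hochberg over all tested probes, threshold 0.05), over 7 fish and without the library labelled male 5. The fits were tested on simulated data with the spread of the 7-fish fit. A log2 change of 1 was recovered in 11 of 50 probes over 7 fish and in 3 of 50 without male 5. For a change of 2 it was 30 and 32 of 50. The simulated spread counts male 5 as a male in both comparisons. In the data the median SD of the members within a sex was 0.41 with male 5 and 0.25 without it. The simulated counts without male 5 therefore do not give the recovery of the real fit without it. Members, lists and markers were chosen with earlier results of these data known. The text names members that passed (up to 8 by size in each direction and comparison), the 3 largest differences in each direction over 7 fish, the 4 brightest, those with the 3 largest and 2 smallest SD within sex, and those whose probes differ in call. Of each other list it names the 2 largest that passed. All other members named with values, such as mrpl22, mrpl24 and mrpl45, were chosen after their values were seen. Alternatives were other background corrections and normalisations, other filters, array weights, the mean of a gene's probes, blocks and left-out fish. Those within a scan session and with array position as a block were added after seeing the data.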

Additional observations from a re-analysis of the deposited data

Results flagged for a closer look

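The named members' log2 ratios in the 4 females, and the median over all members, were examined for a single fish far from the others, 22 groups of values in all. One stood out: for mrpl23, female 4 had a log2 ratio of -0.21, while the other 3 females lay between -0.33 and -0.31. The gap to its nearest neighbour was 0.848 of the whole range of the females, above Dixon's critical value for 4 samples. Chance alone marks about 1 in 20 such groups, and the range of the females of mrpl23 is small beside that of most members.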

How the results depend on the processing

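Over 7 fish, 0 members passed in the main setting. The number was 12 with array weights, 19 within scan session 1 and 20 without male 5, and the fits that left out 1 fish gave 0 to 20. With the replicate block (fish of the same number, 8 and 9, as pairs) it was 12 in both comparisons, against 20 without male 5 otherwise. Both comparisons give the same fit there, because females 4 and 7 and male 5 share their number with no fish. They drop out of the difference, so male 5 plays no part in these 12 calls. Only 2 numbers are shared, deviations from the sex means correlated at -0.13 for pair 8 and 0.43 for pair 9, and the fish share only a number. The median difference over 7 fish, 0.36, became 0.77 with the deposited value table and with the scanner software's processed signals, 1.30 with median centring in place of loess and -0.075 within scan session 3, and lay between 0.24 and 0.60 with 1 fish left out. Without male 5 the 20 calls became 0 with array position as a block, 3 with median centring, 10 with a normexp offset of 0 and 13 with scan session as a block, and 12 to 19 with 1 fish left out. The median difference, 0.60, became 0.49, 1.69 and 0.50 under the first 3 of these and 1.12 with the value table and with processed signals, and lay between 0.48 and 0.77 with 1 fish left out. With scan session as a block and without male 5, only male 9 was set against females, those of its own session. Over 7 fish that block gave a median difference of 0.24, and no member passed. Median centring moved the median of all tested probes from -0.05 to 0.24 and their calls from 5757 to 706, and the value table and processed signals moved that median to -0.35 and -0.33 and the calls to 9506 and 9447. The cause of these shifts was not tested. The median SD within sex, 0.41, was 0.86 with median centring and 0.25 to 0.43 with 1 fish left out. Adding Aquantile leaves ratios unchanged by construction.

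Of the 21 named members, some turned sign. Over 7 fish, mrps21 turned to 0.34 with array weights, 0.082 with the value table and processed signals, 0.97 with median centring, 0.067 with session as a block and 0.52 within session 1. There mrpl20 turned to 0.21 with the value table and processed signals, 0.37 with median centring and 0.048 with offset 0. With median centring mrpl51 turned to 0.69, mrpl23 to 0.49, mrpl43 to 0.22 and mrps16 to 0.0013, and within session 1 mrps16 turned to 0.070. Within session 3 the values were 0.072 for mrpl51, 0.032 for mrpl43, -0.072 for mrps30, -0.27 for mrps18a, -0.25 for mrpl12, -0.091 for mrpl17, -0.37 for mrpl53, -0.32 for mrps6, -0.19 for mrpl14 and -0.18 for mrps23. With 1 fish left out, mrpl20 ranged from -0.75 to 0.32, mrpl51 from -0.72 to 0.31, mrps18a from -0.088 to 0.78 and mrps21 from -0.61 to 0.29. Without male 5, mrpl14 and mrps18b turned to -0.50 and -0.088 with position as a block and mrps18b to -0.10 with offset 0. Then mrpl20 turned to 0.37 with the value table and processed signals, 0.19 with median centring and 0.087 with offset 0. With median centring mrpl51 turned to 0.81, mrpl23 to 0.66, mrpl43 to 0.33 and mrps16 to 0.021. For mrps16 the value was 0.070 with session as a block and within session 1, and for mrps21 -0.066 with the replicate block. With 1 fish left out, mrpl20 ranged from -1.38 to 0.77, mrpl51 from -1.55 to 0.51 and mrps21 from -0.39 to 0.97. The other values of named members kept their sign: without male 5, 349 kept their side of the threshold, 44 no longer passed and 8 passed newly.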
